A study of Rattus norvegicus with 10 samples.

Results

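Markers of the hippocampal fields and of dentate granule cells were followed in left hippocampi of 10 female TgF-344AD rats, 5 fed ibudilast and 5 untreated. The set is a list of 30 gene symbols, some of them selected on their measured values in this same contrast. Rows of the count file with exactly these symbols gave 28 members among 17168 genes. Dsp was not analysed here, and Nectin3, listed under its older symbol Pvrl3, is given in addition and not counted. All 10 rats carried the transgenes of this Alzheimer's disease model (background: mutant human APP and presenilin 1 driven by the mouse prion promoter) and were 11 months old. The ibudilast group received the drug from 5 months of age for 6 months, and the untreated group ate rodent chow. Every rat was anaesthetised with ketamine and xylazine and perfused before the left hippocampus was frozen. Each library carried a tag of its own, taken here as 1 rat, and no group without the transgenes was analysed here. Ibudilast is an inhibitor of cyclic nucleotide phosphodiesterases. The contrast asks how the drug changed gene expression in the hippocampus of these rats.

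The hippocampus is a chain of fields. Granule cells of the dentate gyrus send mossy fibres to CA3 pyramidal cells, CA3 projects to CA1, and the small CA2 field lies between them. Each field's neurons express transcription factors, receptors and calcium-binding proteins that neighbouring fields lack or hold at other levels, and many of the same genes serve neurons elsewhere in the forebrain. A whole-tissue library sums all of these cells. In such bulk samples fewer cells of a type and less RNA per cell cannot be told apart.

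Regulatory sequence was looked at first for Neurod6 and Neurod2, a pair of related basic helix-loop-helix transcription factors of pyramidal neurons that took different calls below. The 250 bases before each gene's start come from RefSeq on the GRCr8 build, whereas the counts were made on rn6. Capitals mark 2 motifs searched on both strands, CAGATG, an E-box form bound by NeuroD proteins, and TGACGTCA, the palindromic cyclic AMP response element bound by CREB. The motifs do not overlap. The Neurod6 promoter lies at chr4:86180156-86180405 on the minus strand and the Neurod2 promoter at chr10:83824278-83824527 on the minus strand.
Neurod6: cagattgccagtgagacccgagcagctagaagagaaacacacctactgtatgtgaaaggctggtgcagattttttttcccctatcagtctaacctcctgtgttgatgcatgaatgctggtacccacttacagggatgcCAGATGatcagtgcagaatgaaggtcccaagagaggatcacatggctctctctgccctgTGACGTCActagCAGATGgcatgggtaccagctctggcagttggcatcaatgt
Neurod2: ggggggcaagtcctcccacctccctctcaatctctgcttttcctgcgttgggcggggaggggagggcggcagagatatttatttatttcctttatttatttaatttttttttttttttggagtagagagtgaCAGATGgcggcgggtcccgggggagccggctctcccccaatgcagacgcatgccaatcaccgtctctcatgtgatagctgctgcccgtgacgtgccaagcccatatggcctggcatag
In the Neurod6 window CAGATG starts 112 and 41 bases before the gene's start and TGACGTCA starts 53 bases before it. Neurod2 holds 1 CAGATG, 118 bases before its start, and no TGACGTCA in this window. A promoter was in the table for 23 of the 28 members. CAGATG was present in 4 of them (17.4%: Rgs14, Chgb, Neurod6 and Neurod2) and in 14.0% of all 33469 promoters. The cyclic AMP element was present in 1 of 23 (4.35%) and in 1.59% of all. These are matches of letters only.

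Expected counts totalled 6960066 to 8204390 per untreated library and 7553804 to 10121571 per ibudilast library (exact two-sided permutation test, p = 0.05556, smallest possible p = 0.007937). The 28 members together held 16246 to 35450 counts per library. Levels are library-scaled counts (CPM) with edgeR's trimmed mean of M-values factors, and they are compared within a gene, never between genes. Some libraries stood apart in markers of neighbouring tissue. Fat2, a cerebellar granule cell marker, was 1183 CPM in ibudilast 3 and at most 5.59 in the others, and the 9 cerebellar markers summed to 3800 CPM there. Ttr of the choroid plexus was 2480 CPM in untreated 1 and at most 63.6 elsewhere. Col1a2 of the meninges was 183 CPM in ibudilast 3 and 223 in ibudilast 5, against 4.52 to 12.3 in the other 8 libraries. Prl of the pituitary was 48.2 CPM in ibudilast 1 and 16.5 in ibudilast 3, and at most 4.14 elsewhere. The members' fold changes and calls are therefore also given, after the field groups, without untreated 1, ibudilast 3 and ibudilast 5. That choice was made after seeing the data, and it keeps ibudilast 1.

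Of the 12 members called lower, 7 were markers shared by several fields, 4 were CA1, CA2 or CA3 markers and 1 was a granule cell marker. Of the 28 members, 26 passed the filter on low counts (Tdo2 and Lct did not), 20 of these 26 had a log2 fold change below 0, and the median was -0.86, against 0.01 over all 11682 genes tested. In edgeR's quasi-likelihood fit of the whole table, at an adjusted p under 0.05, 12 members were called lower in the ibudilast group (46.2% of 26) and 2 higher (7.69%), with 12 not called. Of all genes tested, 18.5% were called lower and 20.0% higher. Because members were chosen partly on this contrast, these calls describe the members and no p-value is given for them. The groups did not overlap for 4 members that were lower (Mas1, Lrrc10b, Zbtb20 and Tspan18), where 11.8% of all genes did so, and for 1 that was higher (Satb1), where 12.3% did so.

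**Figure D1:**
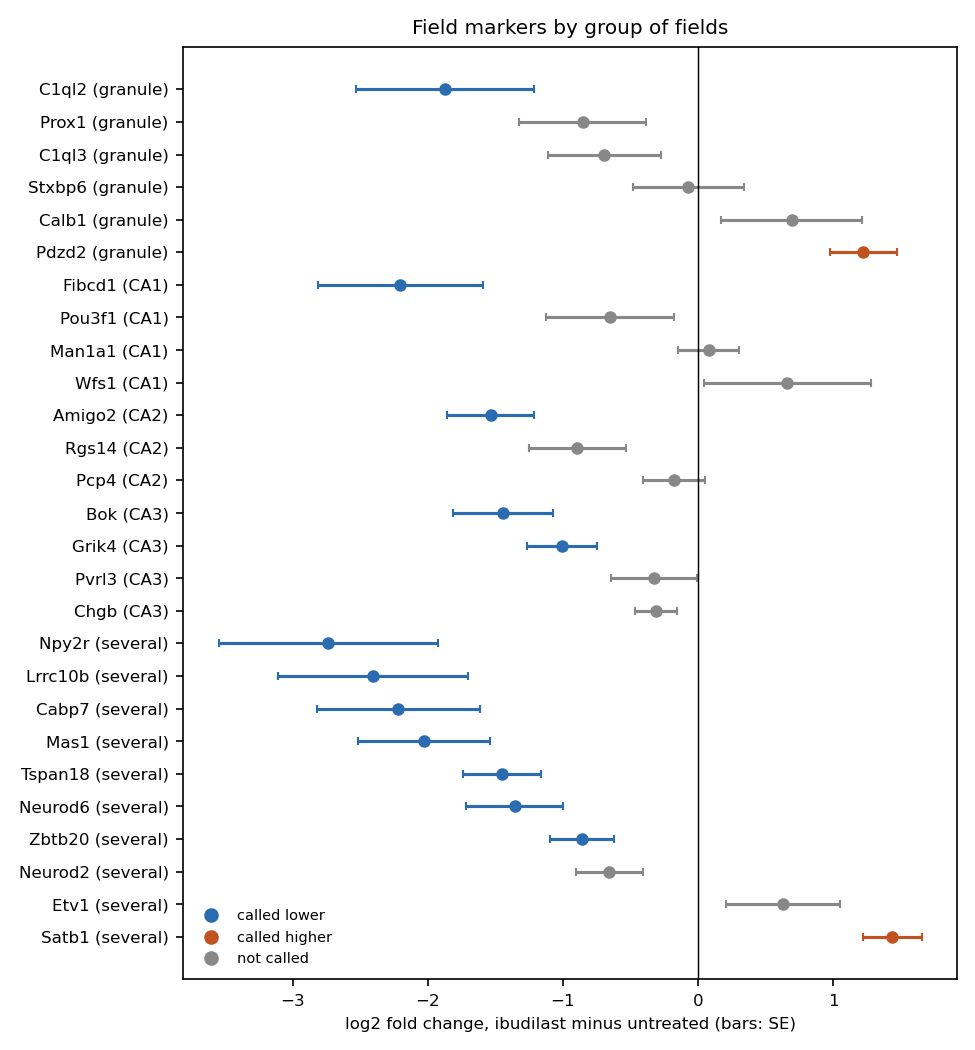
Log2 fold change of ibudilast against untreated for each tested member, grouped by field, with bars of 1 standard error from edgeR (n = 5 and 5). The 12 members called lower run from -0.86 (Zbtb20) to -2.74 (Npy2r), and the 2 called higher are Pdzd2 at 1.22 and Satb1 at 1.44.

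Granule cell markers gave a mixed picture. The list holds 9 symbols, 8 were found and 6 tested, with 1 called lower, 1 higher and a median log2 fold change of -0.38. Prox1, the homeobox factor that specifies granule cell identity, was measured at 11.1, 41.7, 13.6, 56.3 and 46.6 CPM in untreated 1 to 5 and at 27.5, 10.9, 19.5, 8.92 and 26.5 CPM in ibudilast 1 to 5. The groups overlapped, and the means of 33.9 ± 20.3 and 18.7 ± 8.60 CPM (SD, n = 5 each) gave a log2 difference of -0.85 ± 0.47 (SE) that was not called. Untreated 1 was the lowest untreated library for all 6 tested granule members, against 21.3% of all tested genes. Among 12 other granule cell markers, untreated 1 was lowest for 6 and untreated 3 for 5.

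C1ql2 and C1ql3 encode secreted C1q-like proteins of synapses, C1ql2 of the mossy fibres. C1ql2 read 41.9, 149, 49.8, 122 and 86.4 CPM in the untreated libraries and 72.8, 13.1, 5.57, 6.57 and 25.3 CPM in the ibudilast libraries, in replicate order here and below. The fold change was -1.87 ± 0.66, with ibudilast 1 inside the untreated range and the other 4 ibudilast libraries below all of it. In fits leaving out 1 library, C1ql2 passed the threshold only without untreated 1 or without ibudilast 1. C1ql3 held levels of 35.6, 108, 51.3, 115 and 96.9 CPM untreated and 71.8, 56.4, 13.1, 58.8 and 51.5 CPM with ibudilast. It was not called (-0.70 ± 0.42), and only ibudilast 3 lay under the untreated range. How reads shared by these related genes were divided was left to the authors' estimation.

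Calb1, the calcium buffer calbindin of granule cells and also of cerebellar Purkinje cells, stood at 59.2, 178, 91.0, 81.1 and 125 CPM untreated and 129, 60.7, 471, 103 and 95.5 CPM with ibudilast. Its mean was higher with the drug (172 ± 169 against 107 ± 46.3 CPM), with a log2 difference of 0.69 ± 0.52 that was not called. The library at 471 CPM is ibudilast 3, which also held the cerebellar markers, and without it, ibudilast 5 and untreated 1 the difference was -0.29. Pdzd2, a PDZ-domain scaffold, was at 20.1, 29.8, 26.3, 32.8 and 40.2 CPM untreated and 68.3, 82.1, 34.2, 89.2 and 74.4 CPM with ibudilast. Against the direction of most of its group it was called higher at 1.22 ± 0.25, and only ibudilast 3 fell inside the untreated range. Stxbp6, the syntaxin-binding protein amisyn, averaged 33.9 ± 13.1 and 32.3 ± 15.7 CPM (-0.07 ± 0.41). Lct, the lactase gene, had 0 to 4 counts per library, and Tdo2, a tryptophan dioxygenase of mature granule cells, had 1 count in each of untreated 1 and ibudilast 5 and none elsewhere. A floor of 3 counts is 0.284 to 0.440 CPM here, so differences in these 2 genes were not detectable at this depth.

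CA1 was represented by 4 members, all tested, of which 1 was called lower and none higher (median -0.29). Fibcd1, a membrane receptor that binds acetylated sugars and marks dorsal CA1, was found at 93.1, 119, 381, 251 and 306 CPM untreated and at 136, 26.1, 19.6, 16.2 and 52.5 CPM with ibudilast. Its means were 230 ± 122 and 50.0 ± 49.9 CPM, a log2 difference of -2.20 ± 0.61. Ibudilast 1 lay inside the untreated range and the other 4 lay below it. In fits leaving out 1 library the difference ran from -3.00 (without ibudilast 1) to -1.95. Wfs1, the endoplasmic reticulum protein wolframin, took 82.6, 78.2, 67.9, 597 and 67.1 CPM untreated and 358, 227, 220, 195 and 407 CPM with ibudilast. Untreated 4 exceeded every ibudilast library and the other 4 untreated libraries lay below all of them. The difference of 0.66 ± 0.62 was not called with untreated 4 and was called at 1.93 without it. Pou3f1, a POU-domain transcription factor, gave 21.7, 24.6, 42.8, 110 and 28.2 CPM untreated and 36.4, 50.0, 14.0, 23.5 and 21.0 CPM with ibudilast (-0.65 ± 0.48, not called), again with untreated 4 highest. Man1a1, a Golgi mannosidase, differed by 0.08 ± 0.23.

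In CA2, 1 of 3 members was called lower (median -0.89). Amigo2, an adhesion molecule, was at 29.5, 10.2, 49.4, 22.2 and 29.98 CPM untreated and at 11.6, 8.92, 9.36, 9.15 and 9.56 CPM with ibudilast. The ibudilast values were close together (9.72 ± 1.09 CPM) and the untreated ones spread (28.3 ± 14.3 CPM), with untreated 2 below ibudilast 1 and above the other 4. The log2 difference was -1.53 ± 0.32. Rgs14, a regulator of G protein signalling that limits plasticity of CA2 synapses, was 127, 108, 120, 250 and 98.5 CPM untreated and 113, 79.4, 24.5, 85.5 and 76.6 CPM with ibudilast. It was not called at -0.89 ± 0.36, and was called at -1.08 without ibudilast 1. Pcp4, a calmodulin regulator that is also abundant in Purkinje cells, read 189, 208, 147, 139 and 140 CPM untreated and 120, 108, 247, 131 and 118 CPM with ibudilast. Ibudilast 3 was above all untreated libraries and the other 4 below all of them, so that the uncalled difference of -0.18 ± 0.23 was called at -0.46 without ibudilast 3.

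The 3 tested CA3 members had a median of -1.01, and 2 were called lower. Grik4, a kainate receptor subunit, was 137, 67.0, 110, 96.8 and 94.6 CPM untreated and 85.2, 51.1, 30.1, 43.4 and 42.0 CPM with ibudilast, a difference of -1.01 ± 0.26. Only ibudilast 1 reached the untreated range. Bok, a Bcl-2 family member, showed 110, 45.1, 71.6, 111 and 53.5 CPM untreated and 50.9, 12.7, 32.5, 18.5 and 29.1 CPM with ibudilast (-1.44 ± 0.37), with the same single library inside the untreated range. Chgb, the secretory granule protein chromogranin B, was measured at 1233, 716, 843, 1082 and 874 CPM untreated and at 863, 635, 869, 699.5 and 752 CPM with ibudilast. These ranges overlapped and the difference of -0.31 ± 0.16 was not called. Pvrl3 (Nectin3), an adhesion molecule, averaged 13.4 ± 5.44 CPM untreated and 10.6 ± 3.68 CPM with ibudilast (-0.33 ± 0.32, not called).

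**Figure D2:**
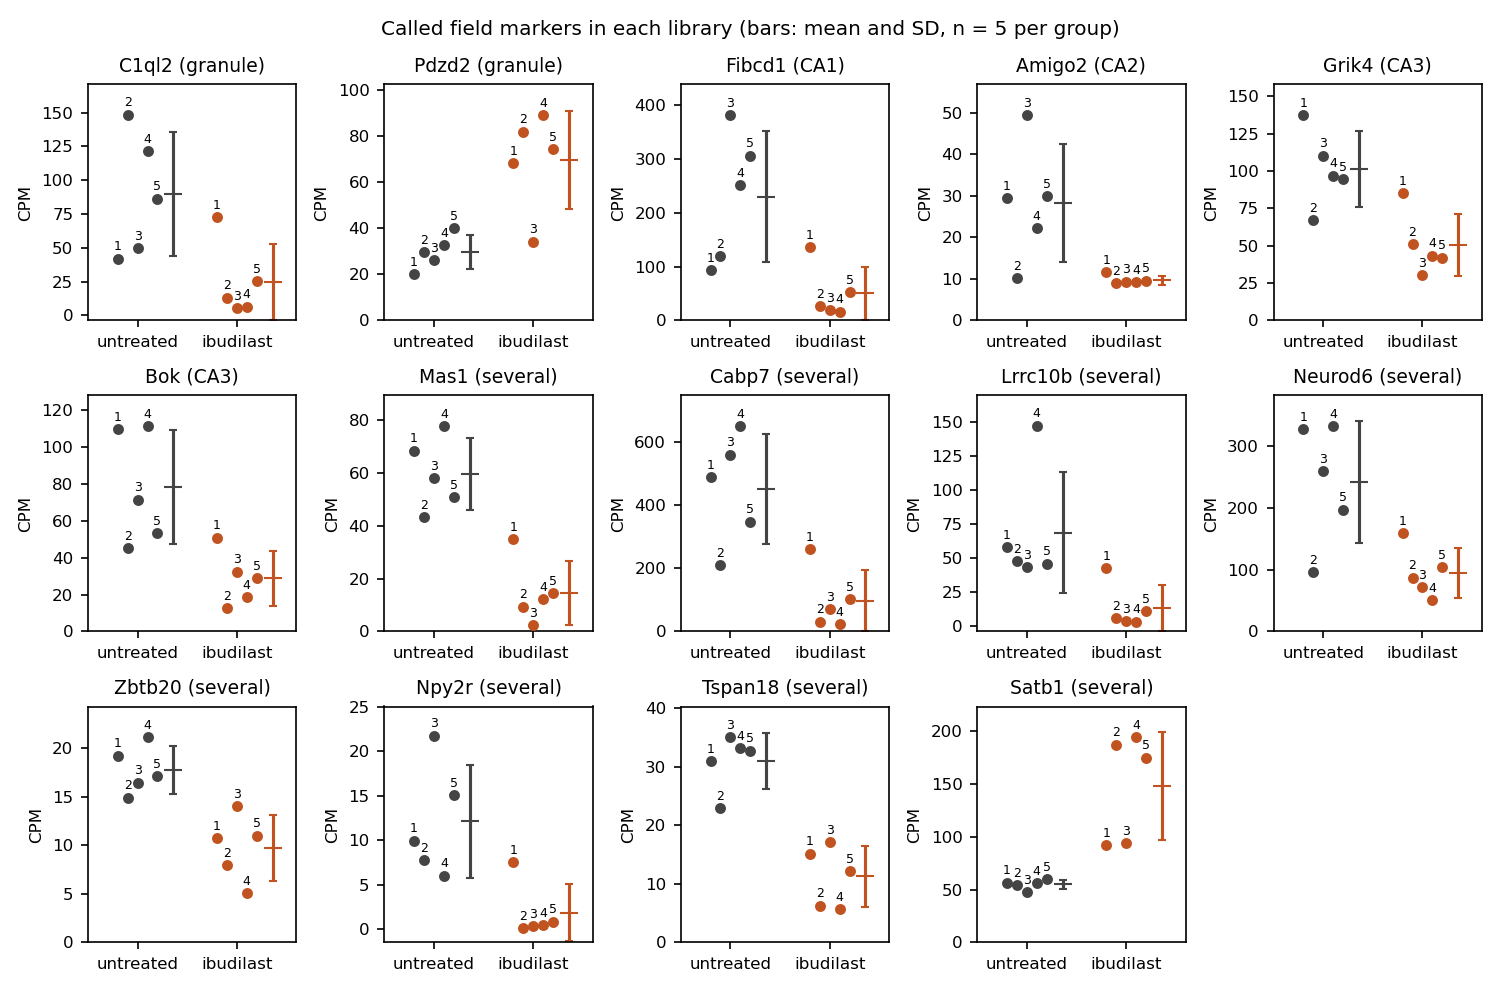
Expression in CPM (linear axes) of the 14 called members, 1 panel per gene, with each point numbered by its library (5 untreated, 5 ibudilast) and bars giving the mean and SD. Ibudilast 1 is the highest ibudilast library for 10 of the 12 members called lower and lies inside the untreated range for 8 of them.

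Of 10 markers shared by several fields, 7 were called lower and 1 higher, with a median of -1.40. Members were assigned to fields from general knowledge, so contrasts between the groups of members depend on that assignment. Cabp7, a calcium-binding protein, was 489.6, 211, 561, 651 and 348 CPM untreated and 260.4, 31.0, 70.1, 22.3 and 102 CPM with ibudilast (-2.22 ± 0.60). Only ibudilast 1 was inside the untreated range. The difference ran from -3.00 (without ibudilast 1) to -1.96 in fits leaving out 1 library. Neurod6 had 327.5, 96.3, 259, 332 and 197 CPM untreated and 159, 87.0, 71.6, 50.7 and 104 CPM with ibudilast (-1.36 ± 0.36). Untreated 2 was the lowest untreated library, below ibudilast 1 and 5. Its relative Neurod2 was 96.2, 66.5, 90.5, 185 and 95.7 CPM untreated and 85.1, 65.1, 78.1, 57.7 and 52.4 CPM with ibudilast, and at -0.66 ± 0.25 it was not called, although it was called without untreated 2 or without ibudilast 1.

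Mas1, a G protein-coupled receptor of the renin-angiotensin system, was at 68.5, 43.3, 58.0, 77.7 and 50.8 CPM untreated and at 34.9, 9.43, 2.45, 12.2 and 14.5 CPM with ibudilast. The groups did not overlap and the difference was -2.03 ± 0.49. It ran from -2.62 (without ibudilast 1) to -1.75 (without ibudilast 3) in fits leaving out 1 library. Lrrc10b, a leucine-rich repeat protein, did not overlap either, at 57.9, 47.7, 43.1, 147 and 45.7 CPM untreated and 42.6, 5.40, 3.45, 3.05 and 10.7 CPM with ibudilast (-2.40 ± 0.70). Its call was lost without untreated 4, and the difference ran from -3.57 (without ibudilast 1) to -1.91 in fits leaving out 1 library. Npy2r, a neuropeptide Y receptor that acts on mossy fibre and Schaffer collateral terminals, was 9.97, 7.80, 21.8, 6.05 and 15.1 CPM untreated and 7.57, 0.126, 0.334, 0.469 and 0.852 CPM with ibudilast. Ibudilast 2 to 5 rest on 1, 3, 4 and 9 counts. The difference of -2.74 ± 0.81 lost its call without untreated 3 or without ibudilast 5. It ran from -4.66 (without ibudilast 1) to -2.41 in fits leaving out 1 library.

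Zbtb20, a zinc finger repressor needed for hippocampal fate and also present in astrocytes, separated the groups at 19.2, 14.9, 16.4, 21.1 and 17.1 CPM untreated and 10.7, 7.92, 14.0, 5.05 and 11.0 CPM with ibudilast (-0.86 ± 0.23). Tspan18, a tetraspanin, separated them as well, at 30.9, 22.9, 35.0, 33.2 and 32.7 CPM and 15.1, 6.28, 17.2, 5.63 and 12.2 CPM (-1.45 ± 0.29). Satb1, a chromatin organiser of forebrain neurons, went the other way. Its levels were 56.8, 54.4, 47.8, 56.1 and 59.8 CPM untreated and 92.2, 187, 93.9, 194 and 175 CPM with ibudilast, without overlap and at 1.44 ± 0.22. Etv1, an ETS factor also found in deep neocortical layers and cerebellar granule cells, was 104, 107, 187, 96.5 and 202 CPM untreated and 142, 151, 513, 155 and 109 CPM with ibudilast. Ibudilast 3 was far above the rest, and the difference of 0.63 ± 0.42 was not called.

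**Figure D3:**
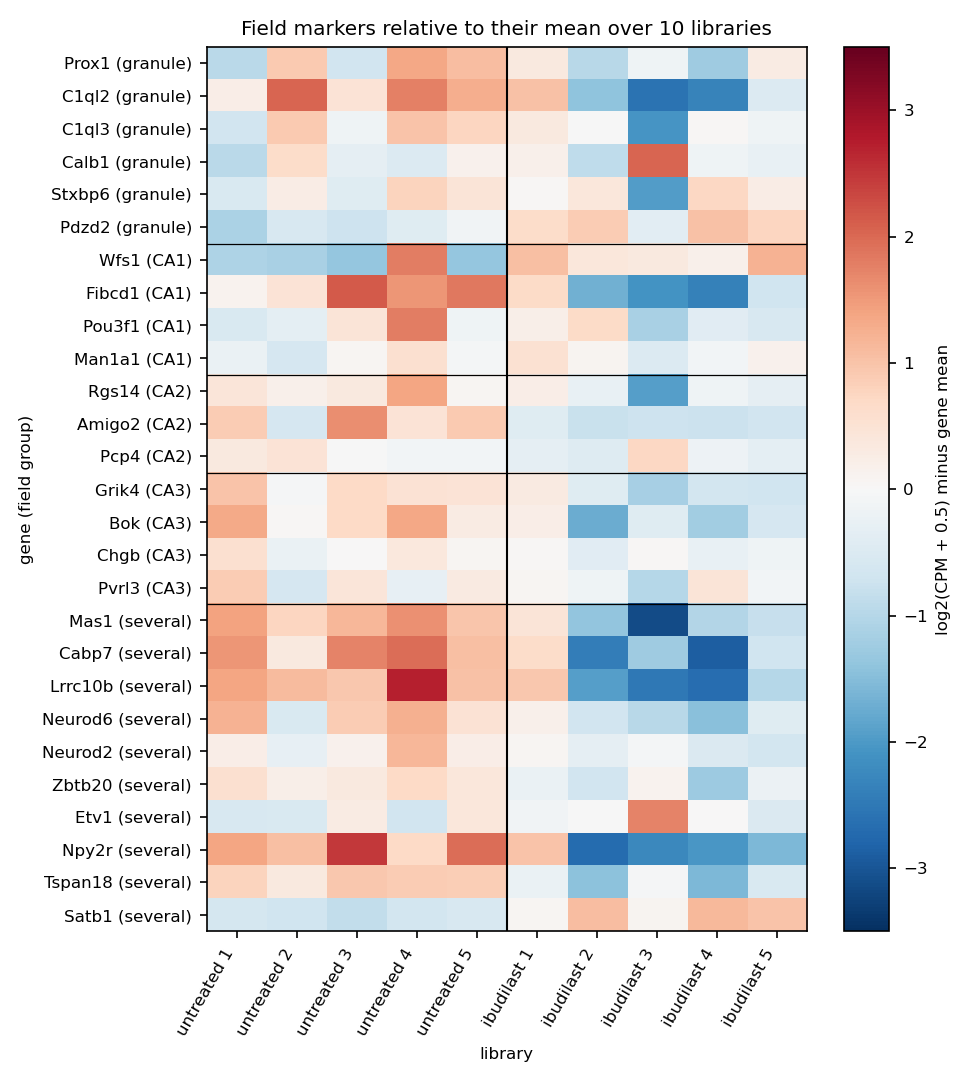
Log2(CPM + 0.5) of each tested member and of Pvrl3, minus that gene's mean over the 10 libraries, with genes in rows by field and libraries in columns. Cells for Fibcd1, Mas1, Cabp7, Lrrc10b and Npy2r are lower in ibudilast 2 to 5 than in ibudilast 1.

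Individual libraries did not shift all members alike. For the 12 members called lower, ibudilast 1 was the highest ibudilast library in 83.3%, against 58.8% of all genes called lower. Ibudilast 2 to 5 were all below every untreated library for 11 of the 12. No share over all genes was computed for that count, and the 12 were picked as lower in these same libraries. Untreated 2 was the lowest untreated library for 8 of the 12 (66.7%, against 15.1% of all genes called lower). Untreated 4 was the highest untreated library for 14 of 26 tested members (53.8%, against 18.9% of all tested genes). For C1ql2, at 149 CPM, untreated 2 was the highest of all libraries.

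With untreated 1, ibudilast 3 and ibudilast 5 left out, 5 members were called lower, where 11.6% of all genes were, and all 5 were among the 12 (Fibcd1 -2.15, Amigo2 -1.50, Mas1 -1.61, Zbtb20 -1.14 and Tspan18 -1.79). The other 7 of the 12 were also below 0 but not called, at -1.73 for C1ql2, -0.62 for Grik4, -1.37 for Bok, -2.08 for Cabp7, -2.07 for Lrrc10b, -1.16 for Neurod6 and -2.24 for Npy2r. The 12 members not called in the full set were not called here either, and ran from -1.33 (Prox1) to 0.36 (Wfs1). Called higher were the same 2, Pdzd2 at 1.30 and Satb1 at 1.53, with a background of 15.0%. The tags in the library names fall into 2 ranges whose meaning the labels do not give. Among tags under 100 (3 rats against 3), edgeR called 0 members lower and 3 higher (Pdzd2 1.29, Wfs1 1.83 and Satb1 1.25), with 19 of 26 members below 0 and backgrounds of 6.94% lower and 10.1% higher. At an unadjusted p under 0.05 that fit held 4 members lower and 3 higher, and 4209 of all genes. Among tags over 200 (2 against 2), 5 were lower (C1ql3 -0.91, Amigo2 -1.44, Grik4 -1.13, Mas1 -2.23 and Npy2r -3.905) and 2 higher (Pdzd2 1.19 and Satb1 1.70), with 24 of 26 below 0 and backgrounds of 1.07% and 3.51%.

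Further markers of the same fields, from lists that do not include the members, were called in both directions. Of 51 tested genes, 10 fell (19.6%) and 6 rose (11.8%), with a median of -0.11, so the share that fell is near the background of 18.5%. None of 12 other granule cell markers passed the test in either direction (edgeR, median -0.04), where 4 had an unadjusted p under 0.05 (2 lower and 2 higher), DESeq2 called 1 and limma-voom 0. Sema5b, a semaphorin, and Ablim3, an actin-binding protein, had the smallest adjusted p, at 0.0609 and 0.0839 with log2 differences of 0.43 ± 0.17 and 0.77 ± 0.33, and Sema5b was called without ibudilast 3. Other CA1 markers went up where they passed, with 3 of 8 higher (20.0% of all genes were) and 0 lower (median 0.62). Galnt3 went the other way at -1.18 ± 0.45, without overlap of the groups, and was not called (edgeR adjusted p = 0.0593). It was at 1.92 to 3.23 CPM untreated and 0.111 to 1.70 CPM with ibudilast. Htr1a differed by -0.09 ± 0.35. Tyro3, a receptor tyrosine kinase, rose from 149 ± 7.58 to 396 ± 53.8 CPM (1.41 ± 0.10, edgeR adjusted p = 0.000226). Pex5l, a subunit of HCN channels, rose from 38.7 ± 9.19 to 92.6 ± 34.1 CPM (1.26 ± 0.26, adjusted p = 0.00422).

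Other CA2 markers included 3 that fell and 1 that rose among 6 tested. Necab2, a calcium-binding protein, fell from 187 ± 26.6 to 69.5 ± 52.1 CPM (-1.43 ± 0.37, edgeR adjusted p = 0.0115). Actn2, an actin crosslinker, and Ntf3, the growth factor neurotrophin 3, fell as well (-0.84 ± 0.23, adjusted p = 0.0145, and -2.03 ± 0.56, adjusted p = 0.0154). Cacng5, an AMPA receptor auxiliary subunit, rose from 1.57 ± 0.658 to 4.33 ± 1.22 CPM (1.48 ± 0.34, adjusted p = 0.00693). Of 6 other CA3 markers, 3 fell and 0 rose (median -0.88). Cpne4, a copine, fell from 251 ± 79.4 to 76.4 ± 61.0 CPM (-1.72 ± 0.48, adjusted p = 0.016). Plagl1, a zinc finger factor, fell by 2.55 ± 0.83 on the log2 scale (adjusted p = 0.0325) and Slc9a4, a sodium-proton exchanger, by 1.98 ± 0.73 (adjusted p = 0.0497), but these calls were lost in 6 and 9 of the 10 fits leaving out 1 library. The Slc9a4 call held only without ibudilast 1, and Plagl1 held only without untreated 2, untreated 4, ibudilast 1 or ibudilast 3. Without untreated 1, ibudilast 3 and ibudilast 5, 6 genes of the other field lists were lower in place of 10, and of the 10 only Emx2, Bhlhe22 and Lhx2 passed in both fits. The other 7 kept their direction, with log2 differences of -1.09 for Necab2 (adjusted p = 0.0765), -0.67 for Actn2 (0.0824), -2.07 for Ntf3 (0.0615) and -1.28 for Cpne4 (0.0692). For Plagl1, Slc9a4 and Nmb they were -2.88, -1.65 and -2.60 (adjusted p = 0.0893, 0.173 and 0.0811).

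Hilar mossy cell markers gave 1 lower and 1 higher of 6. Drd2, a dopamine receptor, rose by 1.44 ± 0.31 (edgeR adjusted p = 0.00497). Nmb, the peptide neuromedin B, fell by 2.40 ± 0.75 on the log2 scale (adjusted p = 0.0268), a call lost without untreated 1, untreated 4, ibudilast 2 or ibudilast 4. None of 5 subiculum markers passed (edgeR), where 1 had an unadjusted p under 0.05, DESeq2 called 1 and limma-voom 0, and the smallest adjusted p were 0.0656 for Cyp26b1, a retinoic acid hydroxylase (1.43 ± 0.57, called without untreated 4 or without ibudilast 4), and 0.128 for the Notch ligand-like Dlk1 (-1.52 ± 0.75, called without untreated 4). Of 8 tested genes of excitatory forebrain neurons, 3 fell and 1 rose. Bhlhe22, a repressor in pyramidal and granule cells, fell from 253 ± 68.3 to 92.4 ± 43.0 CPM (-1.45 ± 0.29, adjusted p = 0.00374). Emx2, a homeobox gene that patterns the hippocampus, fell from 34.0 ± 6.95 to 13.0 ± 4.41 CPM (-1.39 ± 0.25, adjusted p = 0.00227). Lhx2, a LIM homeobox gene, fell from 111 ± 12.6 to 63.5 ± 24.0 CPM (-0.80 ± 0.24, adjusted p = 0.0231), a call lost without untreated 2 or without ibudilast 2. Nfix, a nuclear factor I gene, rose from 60.7 ± 15.4 to 121 ± 20.4 CPM (1.00 ± 0.18, adjusted p = 0.00224).

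Position along the long axis was read from 2 short lists. Among 2 tested markers of the dorsal pole, Stra6, a retinol transporter, fell by 1.67 ± 0.44 on the log2 scale (edgeR adjusted p = 0.012). Among 6 ventral markers 2 fell. Trhr, the thyrotropin-releasing hormone receptor, was at 9.53, 16.2, 22.4, 2.15 and 28.2 CPM untreated and 6.00, 1.76, 1.89, 1.29 and 3.69 CPM with ibudilast (-2.42 ± 0.61, adjusted p = 0.0101). Nr2f2, a nuclear receptor, was 36.4, 47.7, 66.1, 10.5 and 81.4 CPM untreated and 28.8, 5.66, 18.1, 11.6 and 22.4 CPM with ibudilast (-1.48 ± 0.51, adjusted p = 0.0391), a call that held only without untreated 4 or without ibudilast 1 among the 10 fits leaving out 1 library. Without untreated 1, ibudilast 3 and ibudilast 5, Nr2f2 was at -1.75 and did not pass (adjusted p = 0.0848), while Stra6 and Trhr passed. Untreated 4 was the lowest untreated library for Trhr, Nr2f2 and also the dorsal marker Stra6 (3.09 CPM). The ventral list summed to 47.9 CPM there, against 158 to 404 in the other untreated libraries and 81.4 to 176 in the ibudilast libraries. The dorsal list summed to 14.5 CPM there, against 13.9 to 27.2 in the other untreated libraries and 10.7 to 17.9 in the ibudilast libraries. In untreated 4 Wfs1, Pou3f1, Rgs14, Lrrc10b and Neurod2 were at their highest, while the dorsal CA1 marker Fibcd1 was 251 CPM there and 381 in untreated 3.

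Some lists of markers of cells and regions other than these fields differed between the groups too. In the fit of every library, 18.5% of all genes were called lower and 20.0% higher. The pan-neuronal counts and the count of interneuron genes called higher are near these shares. The 12 pan-neuronal genes summed to 9937 to 13949 CPM untreated and 8866 to 12782 CPM with ibudilast, with 2 genes lower and 2 higher (median -0.10). Neocortical markers summed to 256 to 330.4 CPM untreated and 388 to 825 CPM with ibudilast, without overlap, and 6 of 12 rose with 0 falling. Tbr1, a factor of deep-layer neocortex, was 13.5, 12.6, 8.62, 21.2 and 16.0 CPM untreated and 46.1, 121, 27.1, 126 and 86.1 CPM with ibudilast. Cux2, a factor of upper layers, went from 26.9 ± 5.94 to 124 ± 32.0 CPM. Thalamic and striatal markers summed to 155 to 244 CPM and to 288 to 401 CPM, with 5 of 11 rising and 1 falling. Neither of these lists has a marker at 0 in all libraries. The 2 libraries with the highest neocortical sums, ibudilast 2 at 791 and ibudilast 4 at 825 CPM, also held the highest Satb1 (187 and 194 CPM). Without these 2 libraries 4 members were called lower (Amigo2 -1.47, Cabp7 -1.65, Zbtb20 -0.57 and Tspan18 -1.06) and 2 higher (Pdzd2 0.98 and Satb1 1.13). Of all 11836 genes in that fit, 9.32% were called lower and 12.3% higher, and all calls went from 4497 to 2554. Interneuron genes summed to 482 to 871 CPM and 727 to 1231 CPM, with 2 of 8 higher. The sum of 1231 CPM was that of ibudilast 3, which held 455 CPM of Pvalb and the cerebellar markers. Glial genes summed to 6953 to 18476 CPM and 5422 to 10341 CPM, with 4 of 7 lower. The part of tissue makeup in the members' differences was not tested.

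**Figure D4:**
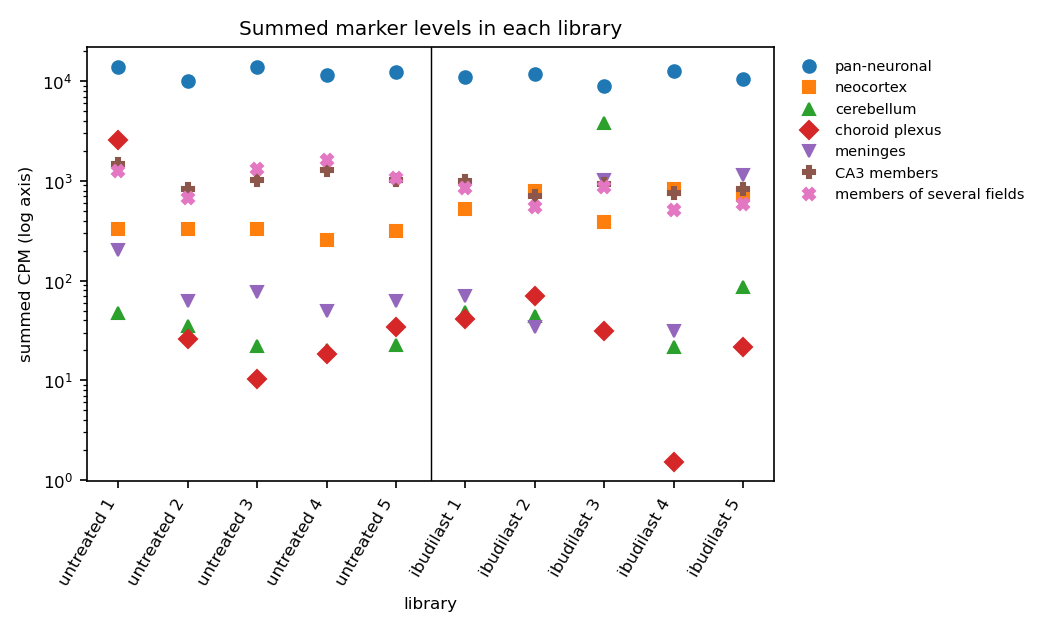
Summed CPM of 5 marker lists and of 2 groups of members in each library (log axis), 5 untreated on the left and 5 ibudilast on the right. The neocortical sums of the groups do not overlap (256 to 330.4 and 388 to 825 CPM), and the cerebellar sum of ibudilast 3 reaches 3800 CPM.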

How the data were processed

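The mRNA of 10 left hippocampi was sequenced as stranded libraries, per the labels' protocols. The authors deposited expected counts per gene; the submitters' processing notes name Bowtie2 2.1.0, RSEM 1.2.15, bcl2fastq 2.17, edgeR and the rn6 build. A second deposited table holds a normalised signal that the authors made, which matched CPM recomputed here within 0.1% for 280 of 280 member values. Groups came from the labels. Expected counts were rounded (10.6% to 11.3% of values per library were not whole) and fitted over all genes with edgeR 4.0.16 in R 4.3.3 (filterByExpr, TMM factors, the quasi-likelihood test, and a threshold of 0.05 on p after Benjamini-Hochberg adjustment), without covariates. The steps were tested on simulated data. The labels do not say how far the rats were handled separately, so p-values measure the spread between these samples.

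The members and the lists of other markers were chosen with earlier results of these data known. The field of each member was assigned from general knowledge and was not measured here. Values per library are given for the 3 most abundant members of each field group, members called against the direction of their group, and the other called members, the last added after their values were seen. Prox1 and Neurod2, which meet none of these conditions, have values per library as well. From each other field list up to 4 called genes of smallest p per direction are named, or the 2 of smallest p where none was called. Some items that this rule selects are not reported here. Alternatives were RLE and upper quartile factors, no filter, DESeq2 1.42.0, limma-voom (limma 3.58.1), a replicate block, the tag range, and leaving out libraries. 25 symbols had been turned into dates in the file, none of them a member found here.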

Additional observations from a re-analysis of the deposited data

Results flagged for a closer look

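Within each group of 5 libraries, the highest or lowest value was set against the gap to its neighbour by Dixon's criterion, and 26 of 140 groups examined exceeded it. The criterion flags about 1 in 20 groups by chance only where values are independent and normally distributed. These CPM are unlogged and the groups share the same 10 libraries, so the 26 cannot be set against a chance number. The next value given below is the next in the same group, and no explanation of these values was tested.

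Untreated 4 stood above the other untreated libraries in 5 members. Wfs1 was 597.1 CPM there and 82.56 in the next library, Pou3f1 110.1 and 42.84, and Rgs14 249.7 and 127.3. Lrrc10b was 147.3 CPM there and 57.92 in the next, and Neurod2 185.5 and 96.2.

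Ibudilast 1 stood above the other ibudilast libraries in 3 members called lower. Lrrc10b was 42.56 CPM there and 10.7 in the next, Npy2r 7.571 and 0.8523, and Amigo2 11.62 and 9.565. Among ibudilast libraries, the CA2 marker Necab2 (161.5 CPM, next 57.1) and the CA3 marker Slc9a4 (24.41 CPM, next 5.966) were highest in ibudilast 1 as well.

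Ibudilast 3 held 470.8 CPM of Calb1 (next 128.8), 247 CPM of Pcp4 (next 131.3) and 513.1 CPM of Etv1 (next 154.8). It also held 1183 CPM of Fat2 (next 5.587), 444.6 CPM of Gabra6 (next 0.3788), 827.6 CPM of Cbln1 (next 50), 454.9 CPM of Pvalb (next 117) and 70.65 CPM of Ablim3 (next 33.91). Fat2 was also set apart in untreated 2, at 1.463 CPM with 0.2763 in the next library.

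Within the untreated group, untreated 1 held 2480 CPM of Ttr (next 18.51), 150.6 CPM of Igf2 (next 27.78) and 96.93 CPM of Lamp5 (next 63.23). Igf2 was higher in ibudilast 3 and 5 (436 and 541 CPM), and Lamp5 was higher in every ibudilast library (104 to 247 CPM). The myelin gene Mbp was 6201 CPM in ibudilast 2, with 3570 in the next ibudilast library, but untreated 1 held 13041 CPM. Prl was 4.145 CPM in untreated 5 (next 0.1344), but higher in ibudilast 1 (48.2 CPM) and ibudilast 3 (16.5 CPM). Tdo2 was 0.1466 CPM in untreated 1 and 0.0947 CPM in ibudilast 5, in each case 1 count, with 0 in the other libraries.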

How the results depend on the processing

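The 12 members called lower stayed so with RLE factors, no filter on low counts, DESeq2, limma-voom and upper quartile factors. With upper quartile factors 45.2% of all calls were higher in place of 52.0%. With the replicate number as a block, 3535 genes were called in place of 4497 and the members' calls were the same. The labels do not say that this number pairs the rats. After each gene's group mean was subtracted from log CPM, correlations between same-numbered libraries ran from -0.127 to 0.023. On that measure no untreated library correlated best with its own number. Of the calls on named genes of the other field and long-axis lists, the block ended that of Nmb (adjusted p = 0.0665) and of Nr2f2 (adjusted p = 0.0504). With the tag range as a covariate 11 members were lower. Tags under 100 alone gave 1997 genes, 0 members lower and 1 other field marker lower. Tags over 200 alone gave 540 genes, 5 members lower and 4 other field markers lower. Without untreated 1, ibudilast 3 and ibudilast 5, members lower were 5 and other field markers lower 6. Without ibudilast 2 and ibudilast 4 the numbers were 2554 genes, 4 members and 3 other field markers. These fits use fewer libraries. Leaving out 1 library gave 10 to 14 members lower, 6 (without ibudilast 2) to 13 other field markers lower, 6 to 10 (without ibudilast 3) other field markers higher, and 3458 to 4751 genes called. No member or named field or long-axis marker called with all 10 libraries changed sign under these settings. Wfs1, not called there, was called higher with tags under 100 (1.83) and was -0.10 with tags over 200. Markers of other cells and regions were not run under these settings. The smallest libraries leave genes under 3 counts unreadable, which bears on Tdo2, Lct and the ibudilast levels of Npy2r.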
